A study of Saccharomyces cerevisiae with 4 samples.

Results

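The open reading frames (ORFs) described here are the rows of a budding yeast expression table that lie near a chromosome end and carry no gene name beyond their systematic name. A row was taken where it lay on 1 of the 16 nuclear chromosomes, had a systematic ORF name in both name columns, and had its nearer edge within 40 kb of the lowest start or highest end listed for its chromosome. After 6 Ty gag and gag-pol rows had been left out, 281 of the 7130 rows of the table met the rule. None of the measured values entered the choice.

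The table holds FPKM values (fragments scaled by row length and library depth) of 4 RNA-seq libraries of Saccharomyces cerevisiae. Of these, 2 came from wild type (WT) and 2 from a strain with the genotype Asr1-RING, a mutant of the RING domain of Asr1. Both groups were grown in enriched medium to log phase, and strain background, mating type and the nature of the mutation are not given in the labels. Total RNA was used after depletion of ribosomal RNA, and the labels name no treatment for either group.

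Asr1, a ubiquitin ligase with a RING finger, binds and ubiquitinates RNA polymerase II, and the study is known to have asked how its RING affects genes near telomeres. Yeast telomeres are bound by Rap1 and the Sir proteins, which can spread inward and keep nearby genes at low levels, a behaviour known as telomere position effect. The last stretch of each chromosome holds X elements and, at some ends, Y' elements, which are repeats that encode helicase-like proteins. Farther in from these elements lie families of duplicated genes for sugar use, transport and surface proteins. Many ORFs there were never given a name, either because nobody has assigned a function or because the reading frame is short or overlaps a gene and may not encode a protein.

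Library depth, estimated from the whole-fragment steps between low values, was 41300000 to 47800000 fragments. A row of 1 kb with 3 fragments would then be listed at 0.079 to 0.091 FPKM, which takes only counting error into account. Libraries correlated at 0.991 within each group and 0.976 to 0.984 between groups (Pearson's r of log2(FPKM + 1) across rows, which are not independent replicates). ASR1 itself (YPR093C) had 7.05 and 6.34 FPKM in WT and 4.99 and 5.39 FPKM in Asr1-RING. Its limma adjusted p was 0.157, and a level does not show a change within the coding sequence, so it does not check the labels. All 4 libraries carried alpha-cell transcripts at 337 FPKM or more and a-cell transcripts at 67.2 FPKM or less, and none of these 11 markers passed the test. Of 13 genes for telomeric chromatin, among them SIR2, SIR3, SIR4 and RAP1, none passed and 1 had an unadjusted p under 0.05. Whether the 2 libraries of a group are separate cultures is not stated in the labels. The p-values therefore reflect the spread between libraries only, and that spread may be technical.

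The 281 ORFs were spread over all 32 chromosome ends, with 3 to 14 at each. Their rows were 51 to 5665 bp long with a median of 480 bp, against 1281 bp for the 376 named ORFs in the same 40 kb. Of the 281 rows, 96 (34.2%) overlapped another row, against 12% of the named ORFs near ends and 46.5% of the 1524 unnamed ORFs farther in. The RefSeq annotation of assembly R64 has a record for 181 of them, 172 protein-coding genes and 9 pseudogenes, and gives 42 of these a gene name that the deposited table does not have. The other 100 have no R64 record, and 60 of those overlap another row.

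Near-identical copies were common, so many of these values rest on reads that fit several rows. Of the 181 members with an R64 sequence, 67 had a copy in another row (at least 90% identity over 50% of the length or more). The way such reads were shared out in counting is not known here. Copies are pointed out below for some of the members concerned, and the values of all of them are uncertain. For 13 members another row listed the same values in all 4 libraries.

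Sequences are shown for 4 called members that overlap no other row, namely the 3 longest and the shortest. They are from RefSeq assembly R64, located by systematic name in its own annotation, and each R64 gene has the same length as its row. The first 3 are the 250 bases before the start codon, which show what stands in front of ORFs that changed. The capitals mark matches to 4 motifs searched on both strands. These were TTACTAA (a Yap1 site), CCCCT (the stress response element), CACGTG (a Pho4 site) and TCCGCGG or TCCGTGG (elements of the Pdr1 and Yrr1 type).
YOR385W, chrXV:1064793-1065042, plus strand: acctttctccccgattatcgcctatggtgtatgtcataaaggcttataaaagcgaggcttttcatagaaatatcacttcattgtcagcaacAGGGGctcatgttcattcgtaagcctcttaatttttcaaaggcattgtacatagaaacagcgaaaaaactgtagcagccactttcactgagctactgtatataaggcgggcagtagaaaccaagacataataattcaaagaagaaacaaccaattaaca
YLL056C, chrXII:28306-28555, minus strand: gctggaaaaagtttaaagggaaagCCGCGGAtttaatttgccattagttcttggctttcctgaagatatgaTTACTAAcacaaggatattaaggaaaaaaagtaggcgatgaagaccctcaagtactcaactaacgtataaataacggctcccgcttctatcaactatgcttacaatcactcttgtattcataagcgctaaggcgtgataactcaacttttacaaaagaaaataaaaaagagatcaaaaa
YML131W, chrXIII:9948-10197, plus strand: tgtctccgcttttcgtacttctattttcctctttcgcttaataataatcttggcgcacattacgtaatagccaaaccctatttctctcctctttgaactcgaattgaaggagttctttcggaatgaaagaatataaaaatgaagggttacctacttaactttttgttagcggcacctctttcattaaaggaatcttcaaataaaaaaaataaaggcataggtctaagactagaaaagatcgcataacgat

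The fourth sequence is a whole reading frame, shown because its row is the shortest of those called and is listed at 0 in both WT libraries. The capitals mark its start and stop codons.
YAR035C-A, chrI:192337-192417, minus strand: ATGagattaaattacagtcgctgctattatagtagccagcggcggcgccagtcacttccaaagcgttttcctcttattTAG

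In these windows CCCCT was found before YOR385W, read as AGGGG on the printed strand. Windows that are not printed held it too, before YML122C, which fell, and before YAR035C-A. Before YLL056C there was 1 match to TTACTAA and 1 to TCCGCGG, the latter read as CCGCGGA on the printed strand. None of the 4 motifs was found before YML131W. Over the 6001 R64 genes with a full window of this length, 18.8% held CCCCT, 6.67% TTACTAA, 2.73% CACGTG and 1.58% an element of the Pdr1 and Yrr1 type. The motifs were picked with the changes already known, and a match is a description of letters and not of binding.

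The unnamed ORFs near ends were expressed at low levels in both groups. Their median was 6.44 and 5.97 FPKM in WT replicates 1 and 2, and 6.55 and 6.38 FPKM in Asr1-RING replicates 1 and 2. The 4 medians overlap between the groups. The median over all ORF rows was 18.6 to 20.1 FPKM, and that of the unnamed ORFs farther in 17.6 to 18.5 FPKM. The named ORFs near ends stood between, at 11.7 to 12.8 FPKM. A mean under 1 FPKM over the 4 libraries was found for 39 members (13.9%), against 2.51% of all ORF rows.

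Levels were lowest closest to the ends. The median WT mean was 4.03 FPKM for the 121 members within 10 kb, 6.77 FPKM for the 64 members between 10 and 20 kb, 7.33 FPKM for the 52 between 20 and 30 kb and 7.92 FPKM for the 44 between 30 and 40 kb. The named ORFs in the same bands went from 5.77 through 7.70 and 14.0 to 19.3 FPKM. Of the 39 members under 1 FPKM, 30 lay within 10 kb. In Asr1-RING the medians of the innermost and outermost bands were again the highest and lowest, at 10.2 and 8.86 FPKM against 3.73 and 3.79 FPKM in the 2 libraries. Members read toward the chromosome end had a median WT mean of 7.97 FPKM (120 rows), and those read toward the centromere 4.06 FPKM (161 rows). These are descriptions of levels with no test, and rows with several copies enter as often as they are listed.

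**Figure D1:**
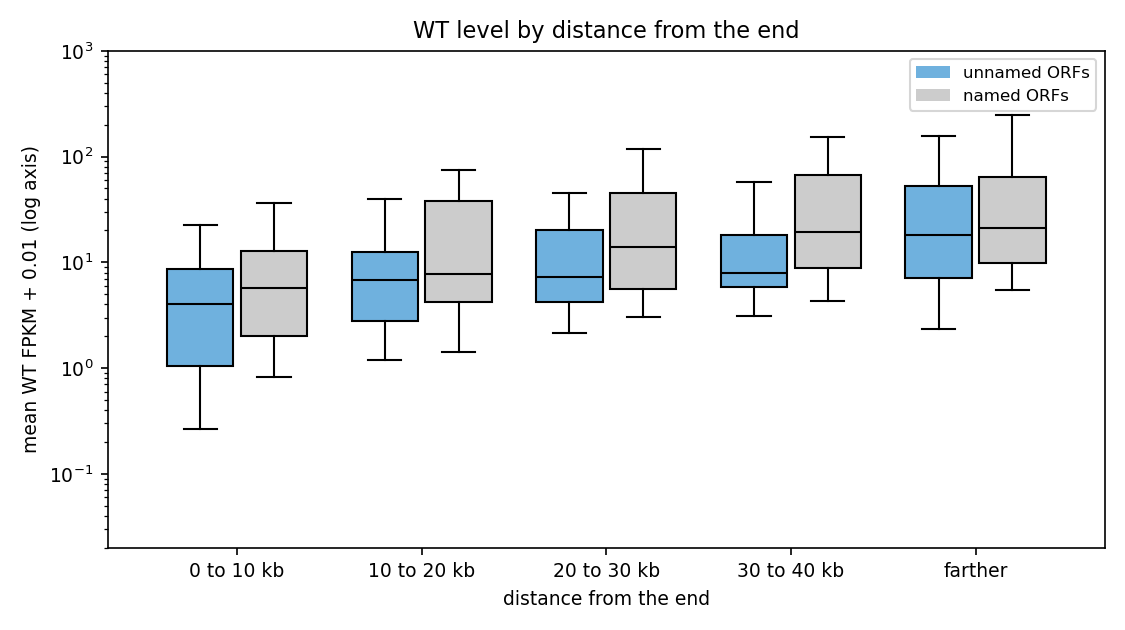
Mean WT FPKM plus 0.01 (log axis) by distance from the end, for unnamed and named ORFs. Boxes span the quartiles with the median as a line, and whiskers run from the 10th to the 90th percentile of the rows. Unnamed ORFs have a median of 4.03 FPKM within 10 kb and 7.92 FPKM between 30 and 40 kb, and both kinds of ORF are higher farther in.

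The 6 members with the highest mean over the 4 libraries were all shorter than 350 bp. YMR307C-A, 195 bp long, had 12110 and 11970 FPKM in WT and 10311 and 10999 FPKM in Asr1-RING, below WT in both mutant libraries (limma adjusted p = 0.295). It overlaps GAS1 (YMR307W), which encodes a cell wall glucanosyltransferase and had 2076 and 1978 FPKM in WT. YBL100C had 264.5 and 239.4 FPKM in WT and 233.3 and 251.7 FPKM in Asr1-RING and overlaps ATP1 (YBL099W), for a subunit of the mitochondrial ATP synthase. Without knowledge of strand handling, reads of overlapping rows on opposite strands cannot be told apart.

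The other 4 of the highest overlap no row. YDL247W-A, of 75 bp, had 883 and 1192 FPKM in WT and 918 and 1709 FPKM in Asr1-RING. YBL107W-A, of 105 bp, had 832 and 1022 FPKM in WT and 966 and 808 FPKM in Asr1-RING. For both, the libraries of the groups overlap. YNR075C-A, of 93 bp, had 239.9 and 203.7 FPKM in WT and 334.6 and 270.3 FPKM in Asr1-RING, so that both mutant libraries lay above WT, and its limma adjusted p was 0.126. It has a near-identical copy in YIL174W, so its value is uncertain. YCL057C-A, now named MIC10, encodes a core subunit of the MICOS complex that shapes the inner mitochondrial membrane, and had 232 and 244.1 FPKM in WT and 234.8 and 283.5 FPKM in Asr1-RING. For such short rows the value turns on the length correction applied by the authors.

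To test the mutant against WT, limma was fitted to log2(FPKM + 1) of every row whose mean reached 1 FPKM, with p-values adjusted over all 6892 rows tested. On this scale the change of low rows is understated. Of the 281 members 242 entered the test, and the other 39 had too low a mean. At an adjusted p under 0.05, 5 members rose, 2 fell and 235 did not pass. One of the 5, YAR035C-A, is listed at 0 in both WT libraries and reached the filter only through the mutant libraries. The 5 that rose are 2.07% of the tested members, and the share over all rows tested was 1.89%. The 2 that fell are 0.826%, against 4.95% of all rows. Over the 6517 ORF rows alone, 1.95% rose and 0.921% fell, so both shares of the members are near this background.

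These counts changed with each library left out, and the cause was not tested. Leaving out either WT library lowered both counts, and leaving out either Asr1-RING library raised both. The counts over all rows moved in the same directions. Centring the libraries on a common median gave 3 higher and 5 lower, and quantile normalization 3 higher and 4 lower. The members' calls were thus mostly lower under both of these scalings and mostly higher without them. Over all 6892 rows the calls were 70 higher and 447 lower with median centring and 307 and 316 after quantile normalization. Without these scalings they were 130 and 341.

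The median log2 difference of the 242 tested members was 0.05, with quartiles of -0.10 and 0.19. It was 0.02 over all rows, 0.03 over ORF rows, 0.06 over the 359 tested named ORFs near ends and 0.01 over the 1450 tested unnamed ORFs farther in. For the members it became -0.02 with median centring and 0.09 after quantile normalization. Median centring moved the comparison sets as well. They stood at -0.06 over all rows, -0.01 over the named ORFs near ends and -0.06 over the unnamed ORFs farther in. After quantile normalization these medians were 0.01, 0.08 and 0.00. Of the members, 221 lay within 0.5 of no change on the log2 scale. An unadjusted p under 0.05 was reached by 49 members (20.2%), against 23% of ORF rows. Both mutant libraries lay above both WT libraries for 86 tested members (35.5%) and below them for 52 (21.5%). Over all rows these shares were 33% and 27.2%, and over ORF rows 34.8% and 23.7%.

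**Figure D2:**
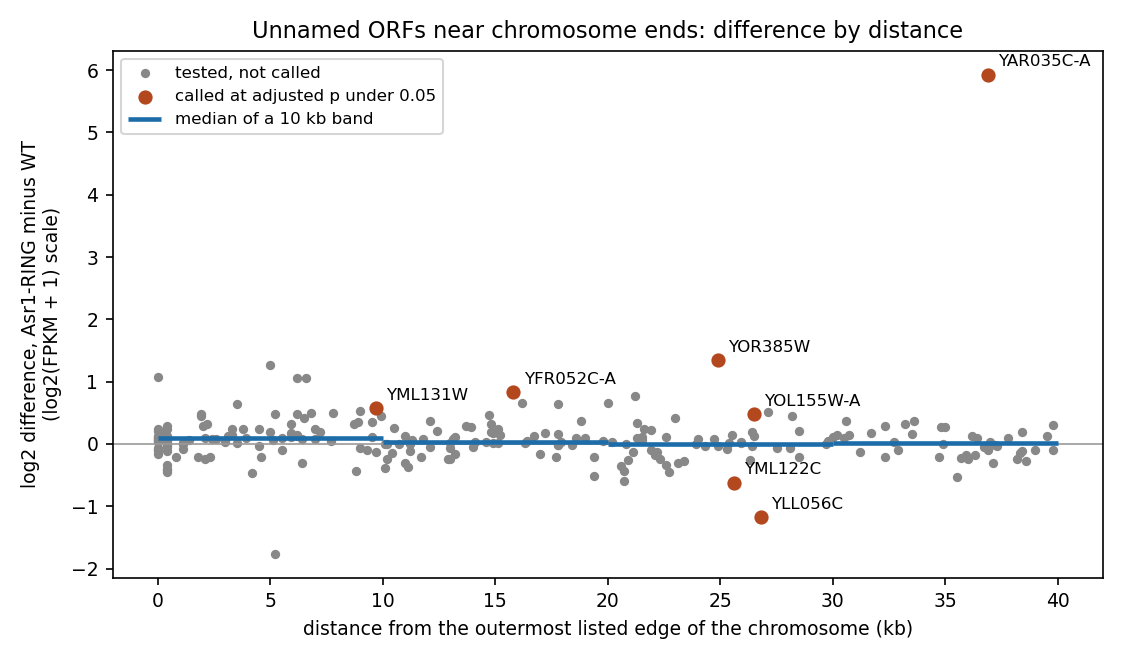
Log2 difference between Asr1-RING and WT of the 242 tested members, by distance in kb from the outermost listed edge of the chromosome. Grey points did not pass the limma test, orange points did, and blue lines are medians of 10 kb bands. These medians run from 0.09 within 10 kb to 0.00 and 0.01 beyond 20 kb. With median centring they lie below 0 beyond 10 kb, and the median over all rows is then -0.06. Most points lie within 0.5 of no change at every distance.

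YOR385W showed the clearest rise among members longer than 200 bp. It encodes a cytoplasmic protein of unknown function and lies on chromosome XV (1065041 to 1065913 in the table's coordinates, build sacCer2 per the submitters' processing notes), 24.9 kb from the end. It had 9.80 and 8.81 FPKM in WT and 23.9 and 26.6 FPKM in Asr1-RING, or about 313, 243, 695 and 809 estimated fragments. Both mutant libraries lay far above both WT libraries. The mean was 2.71-fold higher, 1.35 ± 0.109 on the log2 scale (difference ± SE, limma adjusted p = 0.00243). The call was kept in all 15 alternatives (adjusted p from 0.000545 to 0.0265). Among the alternatives, here and below, is the main fit at an adjusted p under 0.1, where no call can be lost. The neighbours of YOR385W, FRE5 and PHR1, did not pass, at limma adjusted p of 0.516 and 0.795. In these bulk libraries more cells with a transcript and more transcript per cell cannot be told apart.

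A pair of oxidoreductase-like ORFs moved in opposite directions. YLL056C, an NADH-dependent aldehyde reductase of the short-chain dehydrogenase family, lies on chromosome XII (27409 to 28305), 26.8 kb from the end. It had 46.3 and 49.8 FPKM in WT and 17.8 and 24.2 FPKM in Asr1-RING, both mutant libraries far below both WT libraries. The mean was 2.29-fold lower, -1.17 ± 0.156 on the log2 scale (difference ± SE, limma adjusted p = 0.011). The call was lost with either WT library left out (adjusted p = 0.0784 for replicate 1 and 0.0837 for replicate 2) and with no filter (adjusted p = 0.0781), within a range of 0.000592 to 0.0837 over 15 alternatives.

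YML131W, similar to medium-chain dehydrogenases and reductases and known to be induced by stress, lies on chromosome XIII (10199 to 11296), 9.7 kb from the end. It had 39.6 and 45.2 FPKM in WT and 68.2 and 59.2 FPKM in Asr1-RING, with no overlap between the groups. The difference was 0.58 ± 0.119 on the log2 scale (± SE, limma adjusted p = 0.0492). Its adjusted p was the highest of the 7 calls. The call was lost in 8 of 15 alternatives, among them the fits without 1 of the WT libraries (adjusted p = 0.387 for replicate 1 and 0.167 for replicate 2) and median centring (adjusted p = 0.0929), and its lowest adjusted p was 0.0173.

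Of the 6 members on the list of oxidoreductase-like ORFs, these 2 passed and the other 4 did not. That is 16.7% higher and 16.7% lower, 1 row each, beside 1.95% and 0.921% of ORF rows and 1.89% and 4.95% of all rows. The list was drawn up with earlier results of these data known, so these shares are no result about such ORFs. The list also holds YIL165C, which is nitrilase-like and no oxidoreductase. YIR035C, now NRE1, a benzil reductase, had 108.4 and 101.8 FPKM in WT and 109.5 and 107.7 FPKM in Asr1-RING. YIL165C, known as part of a nitrilase gene that is split in the R64 reference, had 17.46 and 12.96 FPKM in WT and 19.96 and 18.02 FPKM in Asr1-RING, the mutant libraries both above WT. The quinone oxidoreductase-like ORFs YLR460C and YCR102C are near-identical to each other. YLR460C had 6.83 and 6.22 FPKM in WT and 6.98 and 4.72 FPKM in Asr1-RING, and YCR102C had 4.68 and 4.75 FPKM in WT and 5.26 and 4.21 FPKM in Asr1-RING, with overlapping groups for both. YMR315W, an NADP(H) oxidoreductase that is not on the list, was named after its values were seen. It had 106.9 and 125 FPKM in WT and 162.1 and 208.3 FPKM in Asr1-RING (log2 difference 0.66, limma adjusted p = 0.061), and did not pass.

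YML122C, a short ORF of unknown function on chromosome XIII (26039 to 26419), lies 25.6 kb from the end and fell. It had 10.5 and 9.54 FPKM in WT and 6.22 and 6.09 FPKM in Asr1-RING, or about 89, 70, 48 and 49 estimated fragments. Both mutant libraries lay below both WT libraries. The mean was 1.63-fold lower, -0.62 ± 0.106 on the log2 scale (difference ± SE, limma adjusted p = 0.0275). The call was lost with either WT library left out (adjusted p = 0.272 for replicate 1 and 0.138 for replicate 2), with ORF rows only (adjusted p = 0.0585) and with no filter (adjusted p = 0.0654), within a range of 0.0121 to 0.272.

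The next row, PHO84 (YML123C), is on the same strand and begins 237 bp beyond the end of YML122C. It encodes the high-affinity phosphate transporter and moved the other way, with 18.02 and 19.1 FPKM in WT and 245.1 and 154.1 FPKM in Asr1-RING (limma adjusted p = 0.0015). On the other side of YML122C, GTR1 had 22.4 and 22.1 FPKM in WT and 25.5 and 19.8 FPKM in Asr1-RING and did not pass. Of the 15 rows that overlap or adjoin the 7 called members, 2 passed, PHO84 and HXK1, both higher in Asr1-RING. Over all rows tested 1.89% were called higher and 4.95% lower, and over ORF rows 1.95% and 0.921%. HXK1 shares a stretch with the called member YFR052C-A, so these calls may not be separate.

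YFR052C-A (chromosome VI, 253416 to 253721), 15.8 kb from the end, rose together with the gene it overlaps. It had 52.5 and 60.3 FPKM in WT and 94.8 and 108.3 FPKM in Asr1-RING, with no overlap between the groups. The mean was 1.8-fold higher, 0.84 ± 0.118 on the log2 scale (difference ± SE, limma adjusted p = 0.014). It shares 143 of its 306 bp with HXK1 (YFR053C), which encodes a hexokinase and had 30.4 and 33.7 FPKM in WT and 54.6 and 77.8 FPKM in Asr1-RING (limma adjusted p = 0.0305). Both names end in C, so the pair lies on 1 strand, and reads from the shared stretch fit either row. The call of YFR052C-A was lost with either WT library left out (adjusted p = 0.139 for replicate 1 and 0.0597 for replicate 2) and with no filter (adjusted p = 0.0658), with a lowest value of 0.00376.

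The other called members are short. YOL155W-A (chromosome XV, 27083 to 27217), an ORF of 135 bp known from expression profiling and mass spectrometry, lies 26.5 kb from the end. It had 64.9 and 67.6 FPKM in WT and 92.9 and 92.5 FPKM in Asr1-RING. The mean was 1.4-fold higher, 0.48 ± 0.0883 on the log2 scale (difference ± SE, limma adjusted p = 0.0356). The spread within each group was small, and the mutant libraries were almost equal. The call was lost in 6 of 15 alternatives, among them the fits without 1 of the WT libraries (adjusted p = 0.35 for replicate 1 and 0.219 for replicate 2), with a lowest value of 0.0218.

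YAR035C-A (chromosome I, 192331 to 192411), described in R64 as a reading frame that arose anew from sequence that was not a gene, lies 36.9 kb from the end. Both WT libraries list it at 0, and the mutant libraries at 105.4 FPKM (replicate 1) and 33.7 FPKM (replicate 2). The mutant values differ widely from each other. The limma adjusted p was 0.00248, but a row that enters the test only through the group where it is high had to differ, so this p lends no support. The adjusted p was between 3.37e-06 and 0.0499 over the 15 alternatives. For a row of 81 bp, printed in full above, the number of fragments behind the value could not be estimated. Its neighbours YAT1 and SWH1, at 80 and 201 bp from it, did not pass (limma adjusted p = 0.885 and 0.25).

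**Figure D3:**
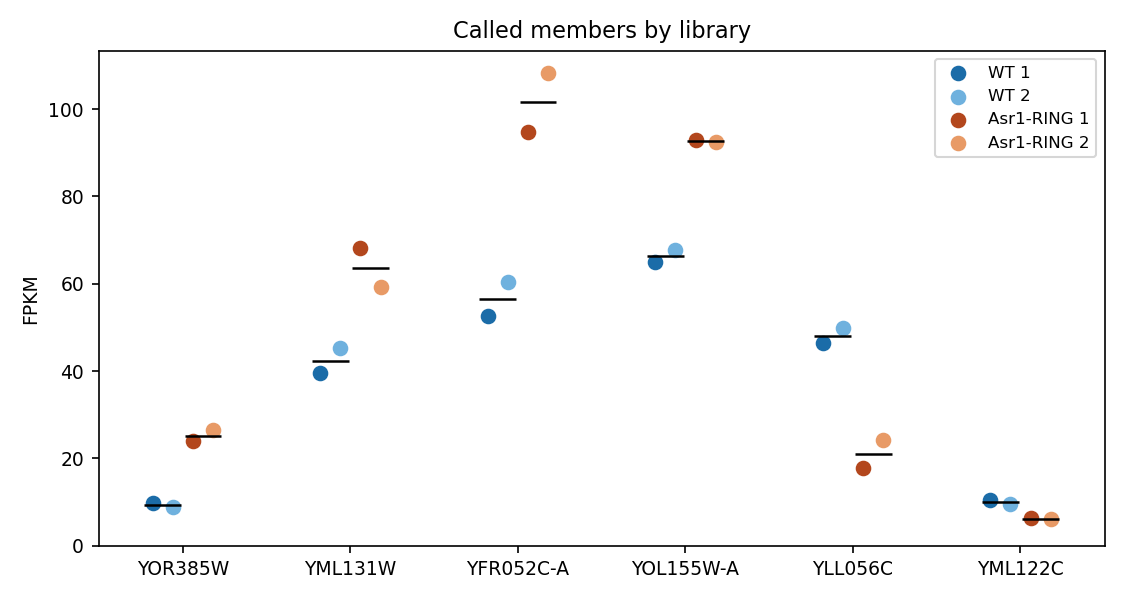
FPKM in each library (points) and group means (lines, 2 libraries each) of 6 called members, with YAR035C-A left out because it is listed at 0 in WT. The Asr1-RING points lie above both WT points for YOR385W, YML131W, YFR052C-A and YOL155W-A and below them for YLL056C and YML122C.

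Next in size came members whose libraries did not overlap between the groups but which did not pass the test. On the higher side YLL066W-B, of 171 bp on chromosome XII, had 1.53 and 0.809 FPKM in WT and 2.93 and 5.77 FPKM in Asr1-RING (limma adjusted p = 0.0647). YLR466C-B, of 117 bp beside a Y' helicase gene, had 79.4 and 138 FPKM in WT and 231.5 and 207.5 FPKM in Asr1-RING (limma adjusted p = 0.0673). YAL064W, of unknown function, had 1.67 and 2.52 FPKM in WT and 3.50 and 5.12 FPKM in Asr1-RING (limma adjusted p = 0.0909). All 3 are low or short, and both mutant libraries lay above both WT libraries.

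YER188C-A had 0.732 and 0.109 FPKM in WT and 2.35 and 1.48 FPKM in Asr1-RING, and YCR108C, which is near-identical to it, 1.72 and 0.498 FPKM in WT and 1.89 and 5.22 FPKM in Asr1-RING (limma adjusted p = 0.0792 and 0.19). Their levels are low in every library, and YER188C-A shares sequence with YNR077C and YOL166W-A, which had too low a mean for the test. YER188C-A itself had a mean of 0.42 FPKM in WT and reached the filter only through the mutant libraries. Its p therefore lends no support. YOL166W-A was listed at 0 in 3 libraries and at 2.04 FPKM in Asr1-RING replicate 1.

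On the lower side YHL048C-A, of 135 bp, had 9.74 and 3.76 FPKM in WT, was listed at 0 in Asr1-RING replicate 1 and had 3.43 FPKM in Asr1-RING replicate 2 (limma adjusted p = 0.199). YIR023C-A had 17.6 and 17.2 FPKM in WT and 10.6 and 13.0 FPKM in Asr1-RING (limma adjusted p = 0.0625) and shares 307 of its 324 bp with DAL81 (YIR023W). YPR195C had 9.32 and 13.1 FPKM in WT and 6.12 and 8.98 FPKM in Asr1-RING, and YNR068C 4.28 and 4.16 FPKM in WT and 3.18 and 2.51 FPKM in Asr1-RING (limma adjusted p = 0.205 and 0.113). YEL076C had 9.88 and 9.72 FPKM in WT and 6.77 and 6.82 FPKM in Asr1-RING (log2 difference -0.47, limma adjusted p = 0.051). It passed in 8 of 14 alternatives, 1 of which is the looser threshold of 0.1, where it had to pass. It lies in a Y' element and has many near-identical copies. YEL077W-A, antisense to the Y' row YEL077C over its whole length of 483 bp, had 2.60 and 2.18 FPKM in WT and 1.63 and 1.33 FPKM in Asr1-RING (limma adjusted p = 0.13).

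The Y' element ORFs form the largest group of related sequences among the members. The list held 36 of them, of which 32 were tested, and none rose or fell by the test. Their median log2 difference was 0.07 (0.00 with median centring and 0.09 after quantile normalization). For all rows it was 0.02 (-0.06 and 0.01 under these scalings). Of the tested ORFs on the list, 8 (25%) had both mutant libraries above WT and 8 (25%) below, where all rows had 33% and 27.2%. The list's median level was 8.07 and 7.25 FPKM in WT and 7.27 and 7.14 FPKM in Asr1-RING, with Asr1-RING replicate 1 just above WT replicate 2.

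By their proteins, 25 members joined into 1 family with these helicase-like ORFs, at 50% identity or more. The highest of the family was YER189W, with 22.1 and 19.8 FPKM in WT and 23.1 and 24.8 FPKM in Asr1-RING. YEL075C had 19.95 and 17.9 FPKM in WT and 19.1 and 20.7 FPKM in Asr1-RING, and YPR203W 19.4 and 18.4 FPKM in WT and 19.9 and 18.5 FPKM in Asr1-RING. YPR202W had 17.5 and 17.3 FPKM in WT and 20.7 and 20.7 FPKM in Asr1-RING (limma adjusted p = 0.17). The long rows YIL177C and YJL225C, both of 5665 bp, had nearly equal values, 8.06 and 7.24 FPKM in WT for the first and 8.08 and 7.26 FPKM for the second. Reads of the Y' rows fit many copies, so these values describe the repeats together and not single ends.

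**Figure D4:**
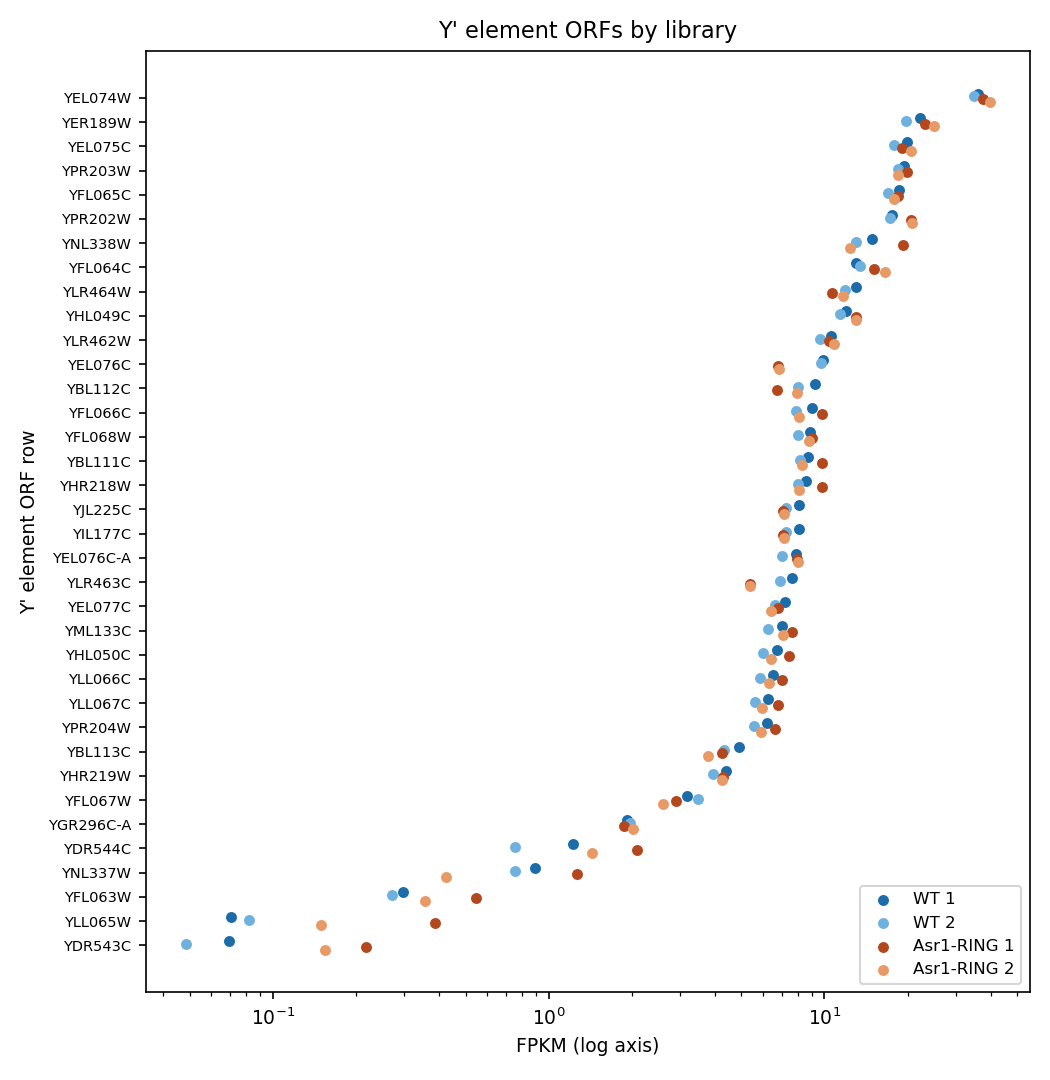
FPKM (log axis) of the 36 Y' element ORF rows on the list, 1 line a row and 1 point a library. The libraries of the groups overlap in 16 of the 32 tested rows, and the 4 rows that were too low to test had means under 1 FPKM.

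The other families had 3 or 4 members each, and no member of them passed. The isomaltase family, enzymes that split alpha-glucosidic bonds of isomaltose-like sugars, had 4 members. YGR287C (IMA1) had 3.52 and 3.73 FPKM in WT and 4.01 and 5.01 FPKM in Asr1-RING. YJL216C (IMA5) had 2.56 and 2.76 FPKM in WT and 2.38 and 2.93 FPKM in Asr1-RING. YOL157C (IMA2) had 1.61 and 1.63 FPKM in WT and 2.06 and 2.06 FPKM in Asr1-RING, and YIL172C (IMA3) 1.16 and 1.15 FPKM in WT and 1.14 and 1.19 FPKM in Asr1-RING. IMA1, IMA2 and IMA3 are near-identical, and only IMA1 and IMA2 had both mutant libraries above WT.

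YOR389W, YPL277C and YPL278C, related ORFs of unknown function, each had both mutant libraries above both WT libraries. YOR389W had 4.36 and 3.94 FPKM in WT and 4.63 and 5.10 FPKM in Asr1-RING, YPL277C 2.92 and 2.23 FPKM in WT and 3.36 and 3.03 FPKM in Asr1-RING, and YPL278C 6.51 and 6.60 FPKM in WT and 9.64 and 7.31 FPKM in Asr1-RING. They share sequence, so they do not count as separate cases. The nearby copies YOR390W (FEX1) and YPL279C (FEX2), which encode fluoride exporters and were named after their values were seen, had both mutant libraries below WT. FEX1 had 42.1 and 40.8 FPKM in WT and 34.4 and 35.4 FPKM in Asr1-RING, and FEX2 43.3 and 39.5 FPKM in WT and 33.9 and 35.8 FPKM in Asr1-RING.

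The ORFs YAR066W and YHR214W, a near-identical pair that encodes predicted surface proteins, joined with YIL169C (CSS1), a secreted glycoprotein. YAR066W had 7.08 and 6.40 FPKM in WT and 7.55 and 6.43 FPKM in Asr1-RING, and YHR214W 7.75 and 7.11 FPKM in WT and 8.45 and 7.08 FPKM in Asr1-RING, with overlapping groups. CSS1 had 20.6 and 19.4 FPKM in WT and 15.2 and 16.04 FPKM in Asr1-RING, both mutant libraries below WT. In the family of YCR100C, YCR101C and YNR066C, membrane or sorting proteins of little known function, levels lay between 5.17 and 9.58 FPKM in all libraries. The last small family, YAL067W-A, YGL260W and YNR075C-A, had levels that ran from 0.503 FPKM for YGL260W in Asr1-RING replicate 1 to the high values of YNR075C-A given above. Each of them has a near-identical copy in YIL174W.

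Transporter-like ORFs were low as well, and none of the 6 on that list passed. YIL166C (SOA1), a transporter of sulfonates and inorganic sulfur, had 7.001 and 6.97 FPKM in WT and 7.37 and 7.73 FPKM in Asr1-RING. YFL054C (AQY3), a channel-like protein, had 6.07 and 5.49 FPKM in WT and 5.17 and 6.41 FPKM in Asr1-RING. YOL163W, thought to be a remnant of a permease gene, had 2.52 and 2.37 FPKM in WT and 4.81 and 3.24 FPKM in Asr1-RING, the largest difference of the list (log2 difference 0.53, limma adjusted p = 0.139). Of the list, 4 ORFs had both mutant libraries above WT and none had them below, where 33% of all rows lay above and 27.2% below. Its median log2 difference was 0.10 beside 0.02 for all rows.

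Of 8 sugar and epimerase-like ORFs, which include the isomaltases, none passed and 3 (37.5%) had both mutant libraries above WT, beside 33% of all rows. The list also holds YBR284W, which resembles AMP deaminases and is no sugar enzyme by its R64 note. Among them YNR073C (MAN2), a mannitol dehydrogenase, had 1.70 and 1.70 FPKM in WT and 2.02 and 2.14 FPKM in Asr1-RING. The list's median log2 difference was 0.08. Of 4 members on the list of DUP240 and DUP380 membrane proteins, 3 were tested and none passed. All 3 had both mutant libraries above WT, as 33% of all rows did, YIR042C with 5.31 and 5.43 FPKM in WT and 7.34 and 6.65 FPKM in Asr1-RING (limma adjusted p = 0.136), YHL042W with 8.47 and 7.96 FPKM in WT and 9.32 and 9.12 FPKM in Asr1-RING, and YHL044W (DFP4) with 10.7 and 10.4 FPKM in WT and 11.3 and 11.2 FPKM in Asr1-RING.

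By distance, the median log2 difference of tested members was 0.09 within 10 kb (91 rows), 0.03 between 10 and 20 kb (59 rows), 0.00 between 20 and 30 kb (50 rows) and 0.01 between 30 and 40 kb (42 rows). With median centring these values were 0.01, -0.04, -0.08 and -0.07, beside -0.06 over all rows. The order of the first 3 bands was the same under quantile normalization, at 0.13, 0.06 and 0.04, with 0.07 in the last. Of the 7 calls, 1 lay within 10 kb, 1 between 10 and 20 kb, 4 between 20 and 30 kb and 1 between 30 and 40 kb. Called higher were 1.1%, 1.69%, 4% and 2.38% of the tested rows of these bands, and called lower 0%, 0%, 4% and 0%. Each 4% stands for 2 rows. Over ORF rows 1.95% were called higher and 0.921% lower, and over all rows 1.89% and 4.95%. Within 10 kb both mutant libraries lay above WT for 36 of 91 rows (39.6%) and below for 17 (18.7%), beside 33% and 27.2% of all rows. The named ORFs within 10 kb had a median of 0.07, with 3 of 60 called higher (5%) and 1 lower (1.67%).

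By direction of reading, 129 tested members read toward the centromere had a median of 0.08, and 113 read toward the end a median of 0.02. With median centring the medians were 0.01 and -0.05, beside -0.06 over all rows. Both mutant libraries lay above WT for 57 of the former (44.2%) and 29 of the latter (25.7%), and below WT for 23 (17.8%) and 29 (25.7%). Over ORF rows these shares were 34.8% above and 23.7% below, and over all rows 33% and 27.2%. Of the called members, 4 that rose are read toward the centromere and 1 toward the end, and both that fell are read toward the end. Members that overlap no other row had a median of 0.09 with 4 higher and 2 lower of 159, and those that overlap one a median of 0.01 with 1 higher of 83. These counts stand beside 1.95% higher and 0.921% lower over ORF rows. None of the 61 tested members with a near-identical copy in R64 passed, and the 42 with an R64 name of their own gave none in 41 tested. Beside the same shares of ORF rows, 0 calls in sets of this size are near the background.

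The 7 calls came from 6 of the 32 ends. Of 28 ends with at least 5 tested members, 21 had a median above 0, a count of 12 with median centring and 24 after quantile normalization. Median centring also moved the median over all rows, from 0.02 to -0.06. The end medians ran from -0.13 at the right end of chromosome XII to 0.41 at the right end of chromosome XIII. At the latter the median was 0.33 with median centring and 0.32 after quantile normalization, and none of its 10 tested members passed.

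The members at the right end of chromosome XIII were looked at after this value was seen. YMR310C (UPA2), a putative methyltransferase, had 29.6 and 32.2 FPKM in WT and 39.4 and 50.6 FPKM in Asr1-RING. YMR316C-A had 11.9 and 12.7 FPKM in WT and 16.2 and 23.7 FPKM in Asr1-RING, and overlaps DIA1 (YMR316W), which itself rose from 6.10 and 5.15 FPKM in WT to 13.2 and 17.7 FPKM in Asr1-RING (limma adjusted p = 0.00883). YMR320W, of unknown function, had 17.8 and 18.1 FPKM in WT and 22.9 and 28.7 FPKM in Asr1-RING. Together with YMR315W, YMR316C-B and YMR321C these made 6 of 10 tested members with both mutant libraries above WT, beside 33% of all rows, and 2 had them below. In all of the 6 but YMR316C-B replicate 2 was the higher mutant library. Between them lies YMR317W, with 8.04 and 8.03 FPKM in WT and 7.92 and 7.33 FPKM in Asr1-RING, below WT.

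**Figure D5:**
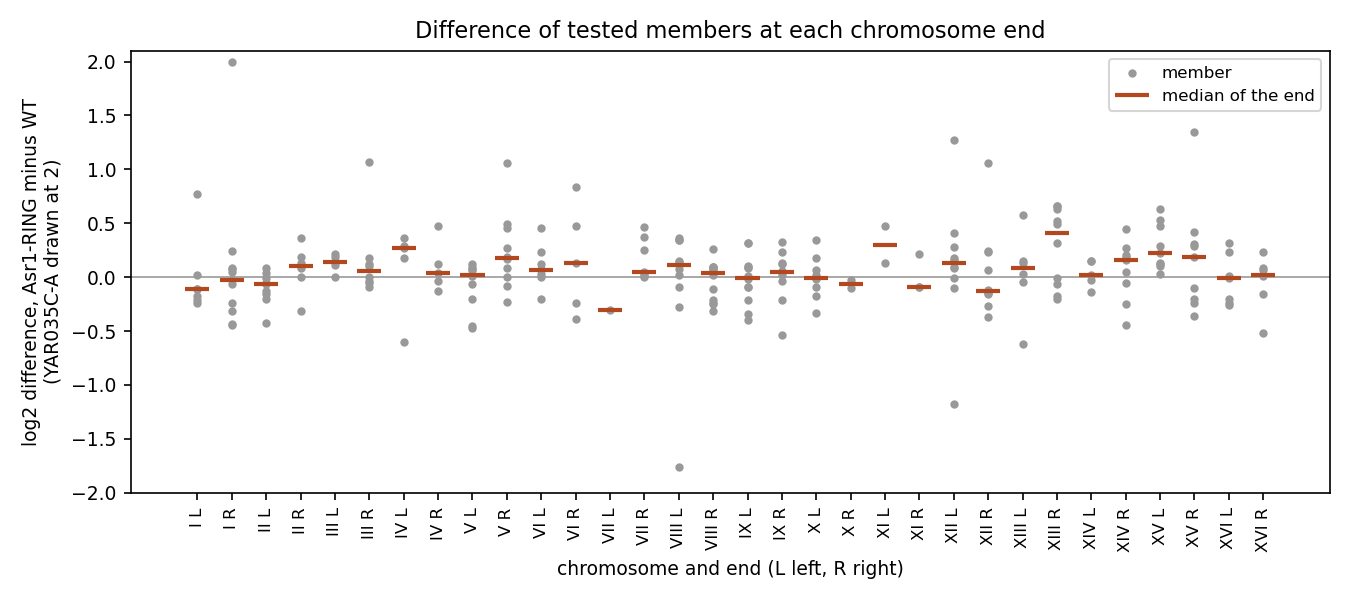
Log2 difference of each tested member (points) and the median (lines) at each of the 32 chromosome ends, left and right. End medians with at least 5 tested members lie between -0.13 and 0.41, 21 of 28 of them above 0 and 12 of 28 with median centring. With that centring the median over all rows is -0.06. YAR035C-A, at 5.93, is drawn at 2.

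At the bottom of the range, 15 members were listed at 0 in at least 1 library, 11 in each WT library and 5 and 6 in Asr1-RING replicates 1 and 2. YJR151W-A, of 51 bp, was at 0 in all 4. Beside YAR035C-A, 2 overlapping rows at the left end of chromosome I were listed at 0 in both WT libraries only. YAL069W had 0.557 and 0.886 FPKM in Asr1-RING. YAL068W-A had 2.8e-08 FPKM in Asr1-RING replicate 1, which is no detected level, and 0.36 FPKM in replicate 2. The converse, at 0 in both mutant libraries only, occurred for 0 members. Across the whole table, values of 0 numbered 99 (WT replicate 1), 120 (WT replicate 2), 108 (Asr1-RING replicate 1) and 100 (Asr1-RING replicate 2). Among ORF rows the counts, listed in that order, were 28, 40, 29 and 26. A difference between the groups in values of 0 was not tested.

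The rows nearest the limit of 40 kb are given as values with no test. Just inside it were YER172C-A, with 0.36 and 0.409 FPKM in WT and 0.13 and 0.124 FPKM in Asr1-RING, and YOR378W, with 7.84 and 5.76 FPKM in WT and 5.37 and 7.17 FPKM in Asr1-RING. Just outside were YNR061C, with 184 and 177.6 FPKM in WT and 177.3 and 161.9 FPKM in Asr1-RING, and YCL048W-A, with 2.42 and 3.27 FPKM in WT and 5.33 and 2.98 FPKM in Asr1-RING.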

How the data were processed

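Per the labels' protocols, total RNA was isolated with hot acid phenol and, after DNase treatment, depleted of ribosomal RNA. The authors deposited 1 table with an FPKM value per row and library. TopHat2, Cufflinks and the build sacCer2 are named in the submitters' processing notes, while their versions and settings, the annotation and strand handling are not known here. Groups come from sample titles, and each column was matched by its description label, with 0 value columns unused. Row starts were counted from 0 in the table and are given from 1. Depth was estimated as the value at which 85.9% to 90.2% of 51 to 64 low ORF rows of 350 to 3000 bp held whole fragments within 0.1, after 204 bp had been taken off each length, and was not used for tests. Estimated fragments are given for rows of at least 350 bp.

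Rows whose mean reached 1 FPKM were tested on log2(FPKM + 1), a pseudocount of 1, in limma with the trend option, which gave 3.71 prior degrees of freedom beside 2 residual ones. P-values were adjusted by the Benjamini-Hochberg method over all 6892 rows, and the fit was checked on simulated data. Folds are ratios of mean FPKM. Members named are those called, the 8 largest differences in each direction without overlap of libraries, the 6 highest, those nearest the limit and up to 4 per family, and list members as examples. Motifs were picked with the calls known. Members, lists and tests were chosen with earlier results of these data known. Copies and families were found with BLAST+ 2.17.0 in R64, to which 181 of 281 members matched. Alternatives were other pseudocounts, filters, scalings and moderation, ORF rows only, the replicate block, each library left out and an adjusted p under 0.1. Other sets of members were those within 20 or 30 kb, without overlaps, or, added after the data were seen, over 200 bp. Python 3.11.15, pandas 2.3.3, numpy 2.4.6, matplotlib 3.10.9, Biopython 1.88, R 4.3.3 and limma 3.58.1 were used.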

Additional observations from a re-analysis of the deposited data

How the results depend on the processing

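The number of members called higher was 5. It was 3 with median centring, quantile normalization or ORF rows only, and also among members over 200 bp, and it was 2 with no filter or within 20 kb. It was 9 with the replicate block and 16 at an adjusted p under 0.1. With 1 library left out it ran from 2 to 23. The number called lower was 2. It was 1 with no filter, ORF rows only or a mean of at least 10 FPKM, and 0 within 20 kb. It was 3 with a pseudocount of 0.1 or 5, and so too with no trend or with the replicate block. It was 4 with quantile normalization or robust moderation, 5 with median centring and 5 at an adjusted p under 0.1. With 1 library left out it ran from 0 to 6. The median log2 difference of tested members was 0.05. It became 0.1025 with a mean of at least 10 FPKM, -0.0246 with median centring, 0.0865 after quantile normalization and 0.0864 without overlapping members. With 1 library left out it ran from 0.0188 to 0.0797. Over all rows the median was 0.0433 with a mean of at least 10 FPKM, -0.0569 with median centring and 0.0131 after quantile normalization. Where a group was left with 1 library, that library was assumed to vary like the other group. Same-numbered libraries did not deviate together (r = -0.07 over 6892 rows). With 2 libraries a group this cannot show whether they were grown or prepared as pairs, and the labels do not say. The block stands as an alternative only. The 18 single members tested for this gave 210 of 260 values on the same side of the threshold, 24 that lost a call, 26 that gained one and 0 that changed sign. These values include the main fit at an adjusted p under 0.1, where a call could be gained but not lost. Members without near-identical copies were not run as a set, because 64.4% of members have a reference sequence, too few for the check to hold. Precision is limited by 2 libraries a group and by depth, with a median of 130.5 and a lower quartile of 42 estimated fragments per member and library among members of at least 350 bp. The cause of the changes between settings was not tested.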
